A study of Mus musculus with 9 samples.

Results

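The Gimap family (GTPases of immunity-associated proteins) was examined in unstimulated CD8 T cells from 3 Rop7-specific clones, named Rop7-I, Rop7-II and Rop7-III. The members were the rows of the expression table with the symbols Gimap1, Gimap3, Gimap4, Gimap5, Gimap6, Gimap7, Gimap8 and Gimap9, which makes 8 genes of 24060. The clones come from 3 lines of transnuclear mice, made by nuclear transfer from CD8 T cells. Each line carries the already rearranged T-cell receptor (TCR) α and β genes of its donor cell. The paper reports that secondary rearrangements were common in these lines, so not every T cell of a line carried the donor TCR. All 3 donor TCRs bind a peptide of the Toxoplasma gondii protein Rop7 on the MHC class I molecule H-2Ld. The study measured their affinity for this antigen, which differed, and asked whether affinity for antigen or for self goes with function. The mice had been backcrossed onto a BALB/c background and were, per the study's description of the RNA-seq, homozygous for the TCR genes. Splenocytes from all 3 lines were kept overnight at 37°C in medium with mouse IL-2 at 10 ng/ml and without antigen. CD3+ CD8+ H-2Ld-Rop7+ cells were then sorted to a purity of 90–95%. There were 3 biological replicates per clone, 9 samples in all. The age of the mice, and whether a replicate was 1 mouse or a pool, are not given in the sources used here. The p-values below set differences between clones against the spread between these samples only. Each clone was 1 mouse line, so its TCR cannot be told apart from other differences between the lines.

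Gimap proteins are GTPases with an AIG1 domain, found mainly in lymphocytes and other blood cells, and several sit on the membranes of lysosomes, the endoplasmic reticulum or mitochondria. They are best known in T cells for their part in survival: loss of Gimap5 or Gimap1 in mice removes most peripheral T cells. Gimap3, Gimap4 and Gimap5 have been tied to proteins of the Bcl-2 family, which set the threshold for apoptosis, and Gimap6 to the Atg8 proteins of autophagy. Gimap7 can pair with another member and raise its GTPase activity, and Gimap8 is the long member with several GTPase domains in 1 chain.

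All 8 genes lie next to each other on chromosome 6 (GRCm38.p6), in a cluster of 124 kb from 48647186 to 48770851. In chromosomal order these are Gimap8 (48647186-48660875), Gimap9 (48676121-48679116), Gimap4 (48684578-48692062), Gimap6 (48701583-48708244), Gimap7 (48718621-48724636), Gimap1 (48739047-48743795), Gimap5 (48746197-48754200) and Gimap3 (48764464-48770851). Gimap6 and Gimap3 are on the minus strand and the other 6 on the plus strand, and 0 other tested genes lie inside the cluster. The Tcrb locus, which holds the rearranged TCR β gene, is on the same chromosome from 40891296 to 41558371, and 7.09 Mb separate it from Gimap8.

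The promoters of Gimap7, Gimap9 and Gimap6 are shown because these genes differed most between Rop7-III and Rop7-II or, for Gimap6, went the other way. Each window runs from 250 bases before to 50 bases after the RefSeq start of transcription (GRCm38.p6) and is written 5′ to 3′ on the strand of the gene. Capitals mark GGAAGT, the core that ETS factors bind, or GGGCGG, the GC box that KLF and SP factors bind, read on either strand.
Gimap7, chr6:48718371-48718670, plus strand: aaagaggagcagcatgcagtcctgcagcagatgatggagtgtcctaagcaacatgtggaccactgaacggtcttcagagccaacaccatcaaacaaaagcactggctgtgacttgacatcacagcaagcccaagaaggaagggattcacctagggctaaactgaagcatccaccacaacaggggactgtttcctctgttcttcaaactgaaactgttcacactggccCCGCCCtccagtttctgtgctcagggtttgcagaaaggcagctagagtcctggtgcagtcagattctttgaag
Gimap9, chr6:48675885-48676184, plus strand: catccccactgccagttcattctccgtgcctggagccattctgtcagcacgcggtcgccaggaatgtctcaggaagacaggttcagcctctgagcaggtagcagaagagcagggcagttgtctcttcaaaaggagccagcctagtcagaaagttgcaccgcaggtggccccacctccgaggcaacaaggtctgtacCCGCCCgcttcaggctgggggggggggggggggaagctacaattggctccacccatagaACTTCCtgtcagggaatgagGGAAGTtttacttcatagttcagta
Gimap6, chr6:48708195-48708494, minus strand: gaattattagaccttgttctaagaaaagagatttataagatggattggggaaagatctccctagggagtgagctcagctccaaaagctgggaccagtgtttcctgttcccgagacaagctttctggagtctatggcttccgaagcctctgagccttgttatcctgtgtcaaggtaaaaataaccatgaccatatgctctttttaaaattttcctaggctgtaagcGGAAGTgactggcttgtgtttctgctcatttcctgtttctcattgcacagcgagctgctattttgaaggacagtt

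RefSeq promoters were found for all 8 members, with 2 starts for Gimap8 and 9 windows in all. The GC box stood in the windows of Gimap7 and Gimap9 and in no other, at -23 and -54 from the first transcribed base (position 0), and 35.7% of all 32851 mouse promoter windows hold it. The ETS core stood in the windows of Gimap9 (at 5 and 25), Gimap6 (at -25), Gimap1 (at 1) and Gimap5 (at -216 and -44), against 23.8% of all windows. TGTGGT, bound by RUNX factors, was found for Gimap4, Gimap7 and Gimap1 (16.8% of all windows), and CTTTGA, bound by TCF and LEF factors, for Gimap4 and Gimap7 (16%). TTCNNNGAA, bound by STAT factors, was found for Gimap6, Gimap7, Gimap3 and the second start of Gimap8 (8.3%), and GTAAACA, bound by FOXO factors, for Gimap3 alone (3.65%). CANNTG, the E-box, was found for every member but Gimap1 and Gimap3 (72.3% of all windows). The match to TTCNNNGAA in Gimap7 starts at 40 and overlaps its match to CTTTGA, which starts at 42. These are matches of letters only, searched on both strands with the expression values already known.

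The deposited values are TPM (transcripts scaled to a fixed sum per library after correction for gene length), so that levels of different genes can be set side by side. The read depth behind a TPM value is not kept in it, so counting error could not be given. Between 11056 and 11494 genes were over 1 TPM in each sample. The sorted cells carried the markers of their label. The sum of 10 CD8 T-cell markers was 8318–9131 TPM over the samples, with Cd3e at 637–732 TPM and Cd8b1 at 2052–2386 TPM, while Cd4 was at most 6.75 TPM. Markers of B cells were also present. The sum of 16 B-cell markers ran from 438 to 1139 TPM for Rop7-I and from 162 to 343 TPM for Rop7-III. For Rop7-II the sums were 206, 292 and 2660 TPM, the last in replicate 1, which stood apart. Myeloid markers (15 in the table) summed to 151–265 TPM outside Rop7-II and to 186–917 TPM within it, and CD4 T-cell markers (6) to 26.6–52.4 TPM over all samples. NK-cell markers (8) summed to 31.7–54.7 TPM, most of it Prf1 (22.25–37.9 TPM) and Eomes (1.49–17.5 TPM), with Ncr1 at most 1.19 TPM. The CD4 T-cell sum was mostly Ctla4 (18.7–34.9 TPM), and Cst3 held 96.0–158 TPM of the myeloid sum. Erythroid and platelet markers (9) summed to 250–1434 TPM for Rop7-I, 36.6–140 TPM for Rop7-II and 89.8–304 TPM for Rop7-III. The endothelial list (8) summed to 142–160 TPM, nearly all of it Pecam1, which T cells also express, with Cdh5 at most 0.07 TPM and Emcn at 0 in all samples.

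The Gimap genes were among the most abundant transcripts of these cells. Gimap3 ranked between 60 and 70 among all genes of a sample and Gimap4 between 68 and 84, and together they made up 60.8–63.1% of the TPM of the family. Gimap6 ranked 118 to 148, and Gimap1, Gimap8 and Gimap9 ranked between 249 and 439. Gimap7 (653 to 1835) and Gimap5 (1308 to 2184) were the lowest members. The sum over the family was 6583 ± 185 TPM for Rop7-I, with Rop7-II at 6435 ± 129 TPM and Rop7-III at 6387 ± 96.0 TPM (SD, n = 3 each). This is 0.628–0.679% of all TPM, and the ranges of the 3 clones overlapped. In a bulk sample, fewer cells that express a gene and less RNA per cell cannot be told apart.

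**Figure D1:**
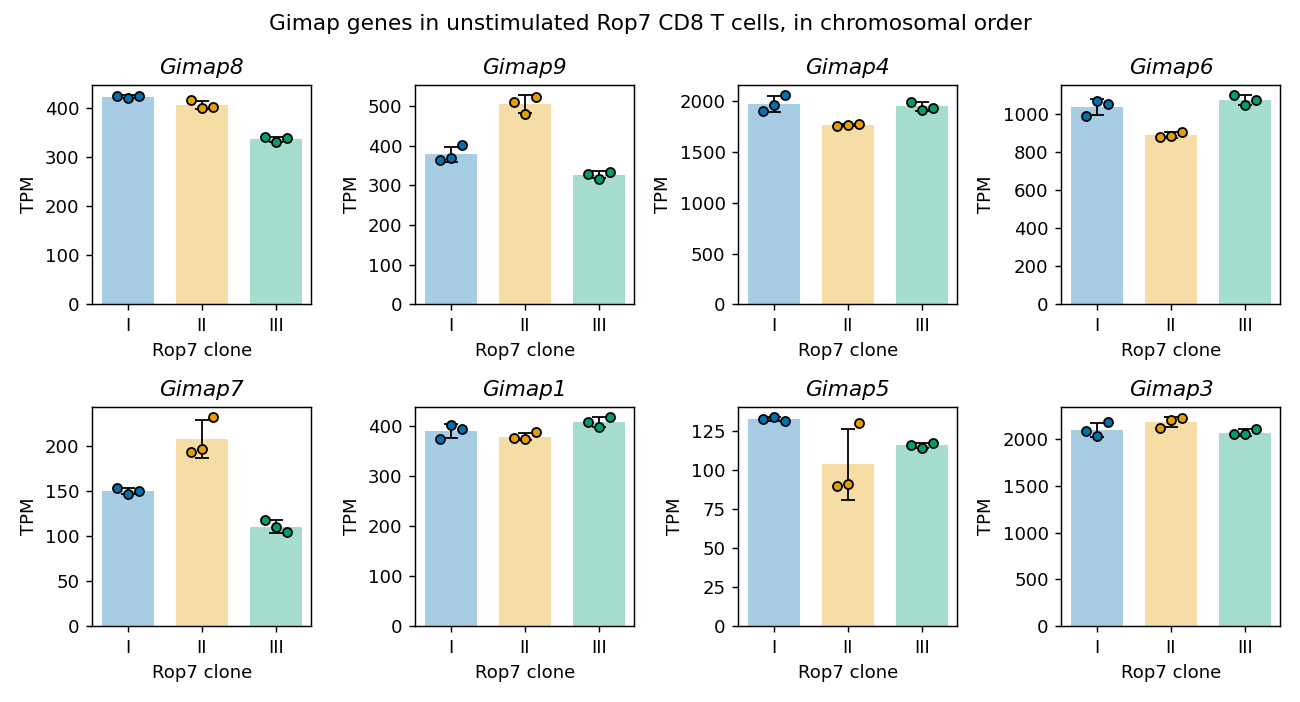
TPM of each Gimap gene by clone, with 1 panel per gene in chromosomal order. Points are samples, bars the mean of 3 samples and error bars the SD. Gimap7 and Gimap9 were highest in Rop7-II, Gimap8 was lowest in Rop7-III, Gimap6 was lowest in Rop7-II, and Gimap3 lay between 2031 and 2218 TPM in all 9 samples.

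The total, most of it from Gimap3 and Gimap4, was thus similar, but the members did not share 1 pattern over the clones. From Rop7-II to Rop7-III, the mean of Gimap7 fell by 46.7%, that of Gimap9 fell by 35.1% and that of Gimap8 fell by 17.0%, while that of Gimap6 rose by 20.4%. A gene was called where its adjusted p was under 0.01, from limma on log2(TPM + 1) in all 9 samples, adjusted over all 12115 genes tested in a pair. By this rule 4 of 8 members were called between Rop7-III and Rop7-II, 1 of them higher and 3 lower, where 12.3% of all tested genes were called (6.39% higher and 5.89% lower). Between Rop7-III and Rop7-I, 2 of 8 were called, both lower in Rop7-III, against 4.85% of all genes (2.58% higher and 2.28% lower). Between Rop7-I and Rop7-II, 3 of 8 were called, of which Rop7-I had 1 higher and 2 lower, against 7.53% (3.67% higher and 3.85% lower). All 8 members passed the filter on low values by a wide margin, since the lowest value of any member was 90.0 TPM. The 3 comparisons share samples, since each clone takes part in more than 1 of them.

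None of the 8 members reached a 2-fold difference in a pair, while 1.7%, 1.06% and 0.949% of all genes were called with at least that difference between Rop7-III and Rop7-II, Rop7-III and Rop7-I, and Rop7-I and Rop7-II. The samples of Rop7-III and Rop7-II did not overlap in 7 of 8 members, with Gimap5 as the exception, and in 40.7% of all tested genes. For Rop7-III and Rop7-I this held for Gimap5, Gimap7, Gimap8 and Gimap9, 4 of 8, and 38.2% of all genes. For Rop7-I and Rop7-II it held for Gimap4, Gimap5, Gimap6, Gimap7, Gimap8 and Gimap9, 6 of 8, and 35% of all genes. The median absolute log2 difference of the members was 0.22 between Rop7-III and Rop7-II, 0.13 between Rop7-III and Rop7-I and 0.19 between Rop7-I and Rop7-II. Over all genes it was 0.13, 0.10 and 0.12. The signed medians of the members were 0.02, -0.11 and 0.05, against -0.02, -0.00 and -0.01 over all genes.

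**Figure D2:**
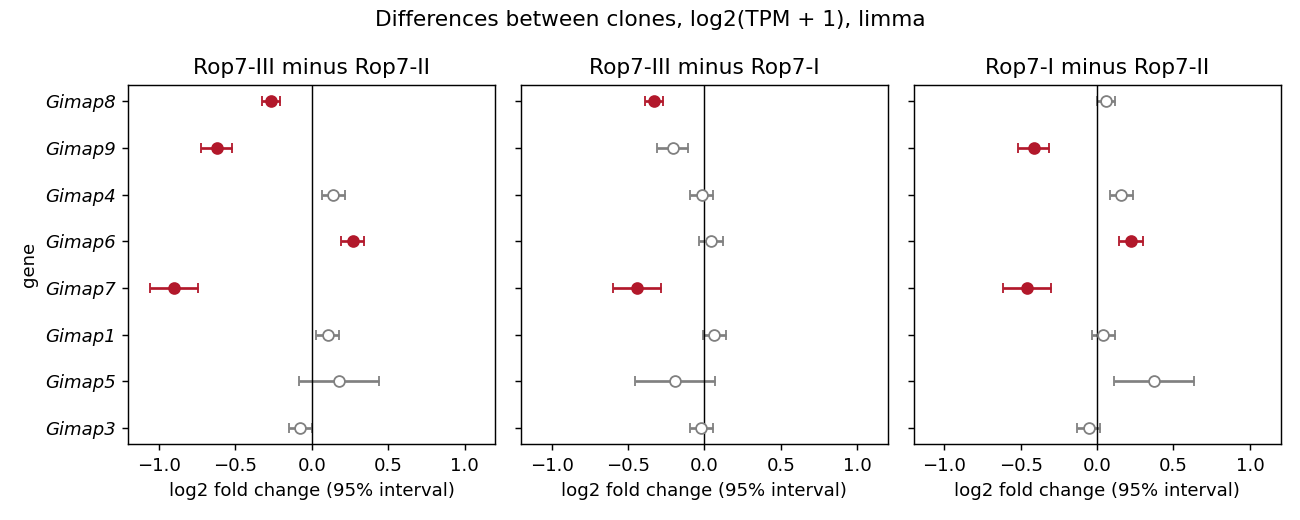
Log2 difference of each Gimap gene between clones, on the scale of log2(TPM + 1), with its 95% interval from limma. Filled red points have an adjusted p under 0.01: Gimap8, Gimap9, Gimap6 and Gimap7 between Rop7-III and Rop7-II, Gimap8 and Gimap7 between Rop7-III and Rop7-I, and Gimap9, Gimap6 and Gimap7 between Rop7-I and Rop7-II.

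Gimap7, the member that can activate the GTPase of its partners, had the widest range. It was at 193, 196 and 232 TPM in the Rop7-II samples, at 153, 147 and 150.2 TPM in those of Rop7-I, and at 118, 109 and 104 TPM in those of Rop7-III. The order was Rop7-II, Rop7-I, Rop7-III, and no sample of one clone reached the range of the next. Mean levels were 207 ± 21.2, 150.05 ± 3.47 and 110.35 ± 7.0 TPM. The log2 difference was -0.90 ± 0.07 (SE) between Rop7-III and Rop7-II, with an adjusted p of 4.02e-05 and a 95% interval from -1.06 to -0.74. It was -0.44 ± 0.07 between Rop7-III and Rop7-I, with an adjusted p of 0.00404, and -0.46 ± 0.07 between Rop7-I and Rop7-II, with an adjusted p of 0.00247. Gimap7 was thus the only member that passed the test in all 3 pairs. The calls that involve Rop7-I were less firm than the first. For Rop7-III and Rop7-I the adjusted p lay between 0.0147 and 0.0212 without any 1 of the Rop7-I replicates or without Rop7-III replicate 2 or 3. For Rop7-I and Rop7-II it was 0.0138 without Rop7-I replicate 2 and 0.0111 without Rop7-I replicate 3.

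Gimap9 ran in the same order. It was at 509, 479 and 523 TPM in the Rop7-II samples, at 364, 369 and 400.4 TPM in those of Rop7-I, and at 329, 317 and 334 TPM in those of Rop7-III. The samples of the 3 clones did not overlap. Mean levels, in the same order, were 504 ± 22.6, 378 ± 19.7 and 327 ± 8.90 TPM. Against Rop7-II, Gimap9 was lower in both other clones, with a log2 difference of -0.62 ± 0.05 for Rop7-III (adjusted p 3.02e-05) and -0.41 ± 0.05 for Rop7-I (adjusted p 4.41e-04). Between Rop7-III and Rop7-I the log2 difference was -0.21 ± 0.05 and missed the threshold, with an adjusted p of 0.0175 and a 95% interval from -0.31 to -0.11. Together Gimap7 and Gimap9 came to 711 ± 40.2, 528 ± 19.7 and 437 ± 10.4 TPM in this order of clones. Both hold a GC box in the promoter windows printed above, as do 35.7% of all mouse promoter windows, and no test relates that match to the levels.

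Gimap6, which binds the Atg8 protein Gabarapl2, was lowest in Rop7-II. It was at 881, 885 and 909 TPM there, at 993, 1072 and 1056 TPM in the Rop7-I samples, and at 1099, 1048 and 1074 TPM in those of Rop7-III. All 3 samples of Rop7-II lay under all 6 others, while Rop7-I and Rop7-III overlapped. Gimap6 was higher than in Rop7-II in both other clones, by a log2 difference of 0.27 ± 0.03 in Rop7-III (adjusted p 7.00e-04) and 0.22 ± 0.03 in Rop7-I (adjusted p 0.00288). The log2 difference between Rop7-III and Rop7-I was 0.05, with an adjusted p of 0.428. The call between Rop7-I and Rop7-II was lost without Rop7-I replicate 2 (adjusted p 0.0157) or replicate 3 (0.0139).

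Gimap4, a member tied to T-cell death, had the same shape with smaller differences. It was at 1756, 1766 and 1781 TPM in the Rop7-II samples, at 1902, 1965 and 2058 TPM in those of Rop7-I, and at 1997, 1914 and 1938 TPM in those of Rop7-III. Rop7-II was again below all other samples, and Rop7-I and Rop7-III overlapped. With adjusted p of 0.0144 against Rop7-III (log2 difference 0.14, 95% interval from 0.07 to 0.22) and 0.0115 against Rop7-I (0.16, from 0.08 to 0.23), neither difference passed the threshold of 0.01.

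Gimap8, the long member, was lowest in Rop7-III. It was at 339, 330.2 and 339 TPM there, at 425, 419 and 423 TPM in the Rop7-I samples, and at 415, 398 and 402 TPM in those of Rop7-II. The Rop7-III samples lay well under the other 6. Gimap8 was lower in Rop7-III by a log2 difference of -0.27 ± 0.03 against Rop7-II (adjusted p 1.33e-04) and -0.33 ± 0.03 against Rop7-I (adjusted p 9.61e-05). For Rop7-I minus Rop7-II the difference was 0.06, with an adjusted p of 0.149, although the samples of these clones did not overlap either. Gimap8 and Gimap7 were the members called between Rop7-III and Rop7-I, and in both the lower clone was Rop7-III.

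Gimap5, needed for the survival of peripheral T cells, gave no call, and 1 sample set that outcome. It was at 133, 134 and 131 TPM in Rop7-I and at 116, 114 and 117 TPM in Rop7-III. In Rop7-II it was at 90.0, 91.1 and 130.1 TPM, so that replicate 3 stood beside the Rop7-I samples and the other two below all samples of the other clones. The coefficient of variation in Rop7-II was 22.0%, where the other clones had 0.938% and 1.26%. With all samples the log2 difference was 0.18 (adjusted p 0.287) between Rop7-III and Rop7-II, -0.19 (0.317) between Rop7-III and Rop7-I, and 0.38 (0.0537) between Rop7-I and Rop7-II. Without Rop7-II replicate 3 these were 0.35 (adjusted p 1.71e-04), -0.19 (0.00305) and 0.55 (2.21e-05).

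Gimap1, needed by mature T and B cells, was 389 ± 13.8, 378 ± 7.16 and 407 ± 9.72 TPM in Rop7-I, Rop7-II and Rop7-III. The log2 difference between Rop7-III and Rop7-II was 0.11 (95% interval from 0.03 to 0.18), with an adjusted p of 0.0447. Gimap3, the most abundant member, was 2096 ± 74.2, 2178 ± 54.7 and 2067 ± 34.5 TPM in the same order. Its log2 difference was -0.07 (from -0.15 to 0.00, adjusted p 0.138) between Rop7-III and Rop7-II. The other differences of Gimap1 and Gimap3 were between -0.06 and 0.06, with adjusted p from 0.243 to 0.758.

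Reads of some members can be shared with other genes. The libraries were not strand-specific, and 1107 exonic bases of Gimap1 are also exons of Gimap1os, which is transcribed from the opposite strand, so reads of these genes cannot be told apart there. Of the windows of 100 bases in annotated transcripts (GENCODE M21), 979 of 3120 windows of Gimap1 (31.4%) were also found in another gene, mostly Gimap1os. For Gimap5 this was 96 of 4245 (2.26%), shared with Gimap3 or the transcript Gm28053, and for Gimap3 41 windows (1.65%), all shared with Gimap5. Gimap4, Gimap6, Gimap7, Gimap8 and Gimap9 shared 0 windows, so the called members were all free of such overlap at this length.

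Ratios between members within a sample separated the clones while the total did not. The denominators used here, Gimap7 and Gimap9, each separated the clones on their own. The ratio of Gimap6 to Gimap7 was 3.93–4.55 in Rop7-II, 6.47–7.32 in Rop7-I and 9.33–10.3 in Rop7-III. The ratio of Gimap4 to Gimap9 was 3.41–3.69 in Rop7-II, 5.14–5.33 in Rop7-I and 5.80–6.07 in Rop7-III. A ratio of TPM within a sample does not depend on the total to which the sample was scaled. These pairs were chosen after the levels were seen and are given with no test.

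**Figure D3:**
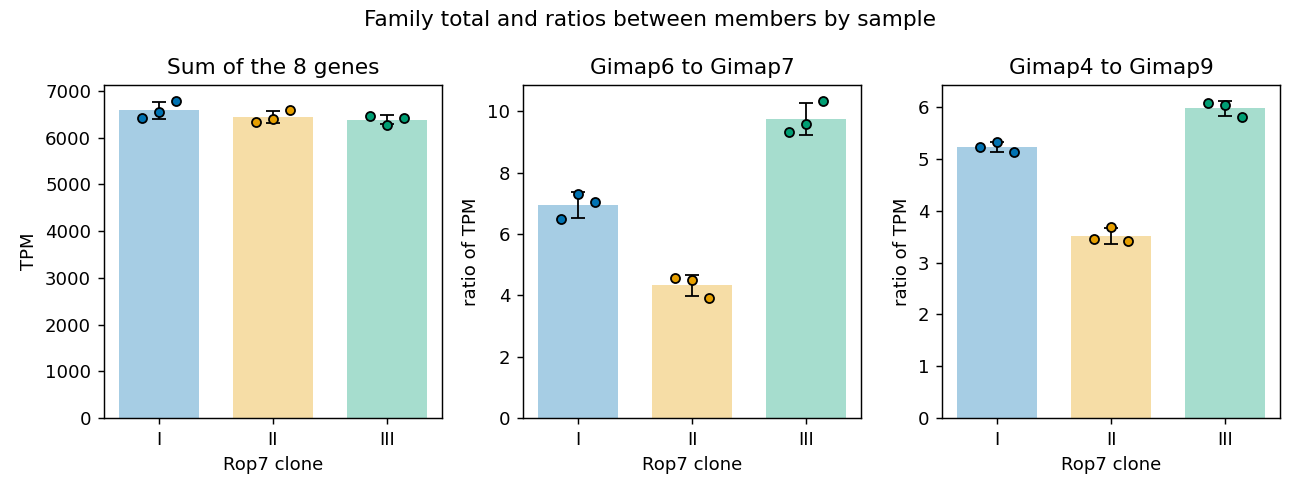
Sum of the 8 Gimap genes in TPM, and the ratios of Gimap6 to Gimap7 and of Gimap4 to Gimap9, by clone. Points are samples, bars the mean of 3 samples and error bars the SD. The sums lie between 6277 and 6787 TPM, and their ranges overlap between the clones. Both ratios are lowest in Rop7-II and highest in Rop7-III without overlap.

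B-cell markers moved with Rop7-II replicate 1 (2660 TPM summed), and to a lesser degree with Rop7-I. Without that replicate, and with the B-cell marker level of each sample as a covariate, the number of members called stayed at 4, 2 and 3 in the 3 pairs. Gimap7 (193 TPM) and Gimap9 (509 TPM) in that replicate lay near the other Rop7-II samples, and Rop7-II replicate 3, which stood apart in Gimap5 (130.1 TPM), had a B-cell sum of 292 TPM and a myeloid sum of 374 TPM, above the 151–265 TPM of the samples outside Rop7-II. The part of other cells in the remaining values was not tested.

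The 10 tested genes on each side of the cluster were followed as its neighbours on the chromosome. Of these 20, 3 were higher and 5 lower for Rop7-III minus Rop7-II (40.0%, against 12.3% of all genes), 0 were called between Rop7-III and Rop7-I (against 4.85%), and 3 were higher and 4 lower for Rop7-I minus Rop7-II (35%, against 7.53%). For Rop7-III and Rop7-I, limma gave 7 of the 20 an unadjusted p under 0.05, where 28.0% of all genes had one, and the number called was 0 or 1 under the other settings. The nearest neighbours, Zfp775 at 25.6 kb before the cluster and Tmem176b at 63.0 kb after it, were not called in any pair.

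Before the cluster, 3 genes were more than 2-fold higher in Rop7-II than in both other clones. Repin1, a zinc-finger gene at 48.1 kb, was at 6.57, 5.82 and 4.97 TPM in Rop7-II and at 0.54–1.31 TPM in the other 6 samples (log2 difference -1.78 for Rop7-III minus Rop7-II, adjusted p 7.93e-05, and -2.02 for Rop7-I minus Rop7-II, adjusted p 5.91e-05). Atp6v0e2, a subunit of the vacuolar proton pump at 105 kb, was at 2.74, 2.82 and 2.64 TPM in Rop7-II and listed at 0 to 0.08 TPM elsewhere. Atp6v0e2 passed the filter of a maximum TPM above 1 only through Rop7-II, where it is high, so no p-value is given for it. It is still among the called neighbours counted above. Zfp862-ps, a pseudogene at 112 kb, was at 11.3, 12.7 and 12.5 TPM in Rop7-II and 1.22–2.82 TPM elsewhere (-1.84, adjusted p 3.07e-05, and -2.27, adjusted p 1.07e-05). All 3 are low next to the Gimap genes, and sharing of Zfp862-ps reads with similar genes was not tested.

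After the cluster, Fam221a at 596 kb was at 3.21, 3.43 and 3.54 TPM in Rop7-II and 7.96–10.8 TPM in the other samples, so it was lowest in Rop7-II. The log2 difference was 1.32 for Rop7-III minus Rop7-II (adjusted p 3.02e-05) and 1.14 for Rop7-I minus Rop7-II (adjusted p 1.03e-04). Igf2bp3, an RNA-binding protein gene at 314 kb, was at 1.45–2.22 TPM in Rop7-II samples, 3.31–3.66 TPM in those of Rop7-I and 5.08–6.08 TPM in those of Rop7-III. Its log2 difference between Rop7-III and Rop7-II was 1.23 (adjusted p 1.93e-04), and that between Rop7-I and Rop7-II was 0.72 (adjusted p 0.00538, and lost without any 1 sample other than Rop7-II replicate 2 or Rop7-III replicate 3, for instance 0.0227 without Rop7-I replicate 1). The remaining calls among the neighbours, Zfp746, Lrrc61 and Mpp6, were under 2-fold. For Rop7-III minus Rop7-II, that of Mpp6 (adjusted p 0.00835) was lost without any 1 sample other than Rop7-I replicate 1 or 2 (for instance 0.0335 without Rop7-III replicate 1), and that of Lrrc61 (0.00456) without Rop7-II replicate 2 (0.0118) or any 1 of the Rop7-III replicates (0.0149 to 0.0191).

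**Figure D4:**
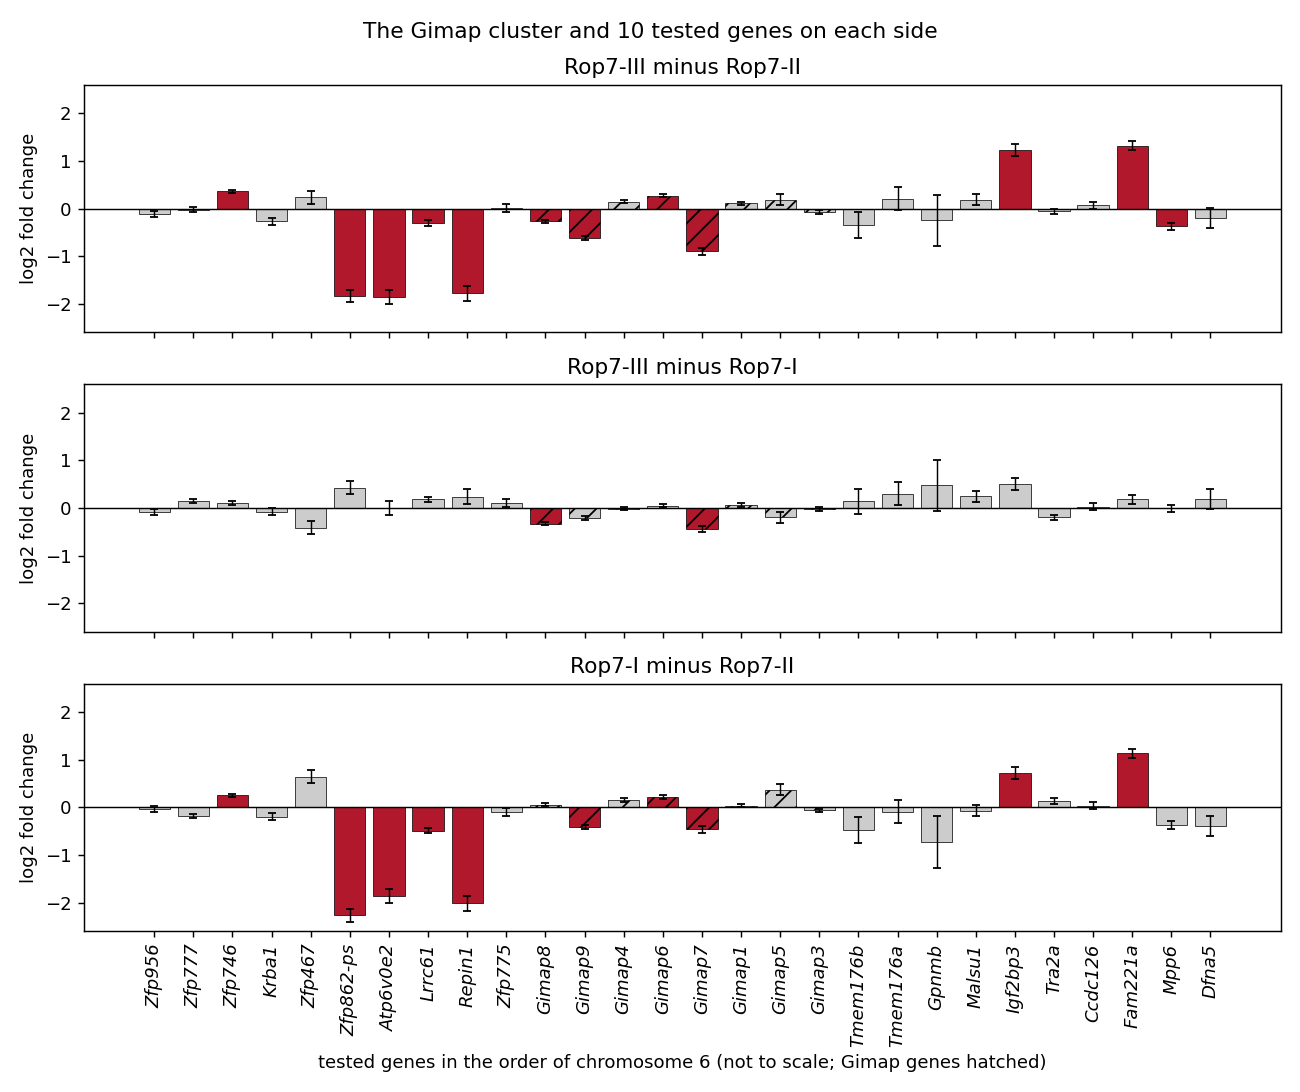
Log2 difference between clones for the Gimap cluster (hatched) and the 10 tested genes on each side, in the order of chromosome 6 and not to scale, with the standard error as error bars. Red bars have an adjusted p under 0.01. In the pair of Rop7-III and Rop7-I the red bars are Gimap8 and Gimap7.

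The partners of the family were examined next, starting with the Bcl-2 proteins. Of 18 genes listed, 16 were tested. Between Rop7-III and Rop7-II, 3 were higher (18.8%, against 12.3% of all genes). In this pair 5 were higher without Rop7-II replicate 1 and 2 without Rop7-III replicate 1 or 2, and 1 was lower without Rop7-II replicate 2. Between Rop7-III and Rop7-I 2 were higher (12.5%, against 4.85%), and between Rop7-I and Rop7-II 2 were higher (12.5%, against 7.53%). For Rop7-III minus Rop7-I, 1 was called without Rop7-I replicate 1 or 2 or any 1 of the Rop7-III replicates. For Rop7-I minus Rop7-II, 1 was called without Rop7-II replicate 1 or 2 and 0 without any 1 of the other samples. The median log2 differences were 0.05, 0.05 and 0.01.

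Bbc3, which encodes the pro-apoptotic protein Puma, was at 59.9, 60.7 and 57.9 TPM in Rop7-III and 18.6–27.1 TPM in the other samples. It rose by 1.24 on the log2 scale over Rop7-II (adjusted p 1.37e-05) and by 1.49 over Rop7-I (adjusted p 5.67e-06). Bcl2l11, which encodes the death-inducing protein Bim, was 83.5 ± 0.997, 76.2 ± 5.28 and 62.5 ± 3.49 TPM in Rop7-III, Rop7-I and Rop7-II, with a log2 difference of 0.41 between the first and last (adjusted p 8.00e-04). Bcl2, the survival protein that gives the family its name, was 18.8 ± 1.01, 18.2 ± 2.41 and 12.9 ± 0.715 TPM in that order. Its log2 difference between Rop7-III and Rop7-II was 0.52 (adjusted p 0.00335, and 0.0171 and 0.0159 without Rop7-III replicate 1 and 2). For Rop7-I minus Rop7-II, the calls of Bcl2 (0.46, adjusted p 0.00828) and Bcl2l11 (0.28, adjusted p 0.00836) were lost without any 1 sample, other than Rop7-II replicate 2 for Bcl2l11 (for instance 0.0204 and 0.0255 without Rop7-I replicate 2). Bcl2l2 was called between Rop7-III and Rop7-I at levels of 2.62 and 0.46 TPM (adjusted p 0.00266, and 0.0115 to 0.0161 without Rop7-I replicate 1 or 2 or any 1 of the Rop7-III replicates). Bax (161–168 TPM as clone means) and Bcl2l1 (7.66–8.51 TPM) were not called in any pair.

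Of 27 genes of the Atg8 family and autophagy, all tested, 1 was higher and 1 lower in each pair (7.41%, against 12.3%, 4.85% and 7.53% of all genes). For Rop7-I minus Rop7-II, 0 were called without Rop7-I replicate 2 or 3, 1 without Rop7-I replicate 1 and 3 without Rop7-II replicate 1. For Rop7-III minus Rop7-II, 1 was called without any 1 sample other than Rop7-I replicate 1. Gabarapl2, the partner of Gimap6, was 146 ± 5.82, 137 ± 1.27 and 149.6 ± 5.69 TPM in Rop7-I, Rop7-II and Rop7-III, and was not called (log2 difference between Rop7-III and Rop7-II 0.13, adjusted p 0.0375). Atg14, a subunit of the lipid kinase that starts autophagosomes, was at 32.5, 32.4 and 34.9 TPM in Rop7-III and 89.3–108 TPM in the other samples. It was lower in Rop7-III by a log2 difference of -1.54 against Rop7-II (adjusted p 9.76e-07) and -1.63 against Rop7-I (adjusted p 1.28e-06). Rb1cc1, a subunit of the kinase complex upstream of it, had a log2 difference of 0.25 for Rop7-I minus Rop7-II (adjusted p 0.00222, and 0.0127 and 0.0108 without Rop7-I replicate 2 and 3). Its call between Rop7-III and Rop7-II (0.17, adjusted p 0.00817) was lost without any 1 sample other than Rop7-I replicate 1 (for instance 0.0228 without Rop7-II replicate 1). Sqstm1, a receptor for autophagic cargo, was lowest in Rop7-I, at 233 ± 3.42 TPM, against 264 ± 6.81 TPM for Rop7-II and 271 ± 2.41 TPM for Rop7-III (adjusted p 0.00291 and 0.00143). The call against Rop7-II was lost without any 1 of the Rop7-I replicates (0.0130, 0.0102 and 0.0136).

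Of 26 genes of naive T-cell survival and quiescence, the state in which Gimap expression is known to be high, 6 were higher and 2 lower for Rop7-III minus Rop7-II (30.8%, against 12.3% of all genes, with 4 or 5 called without any 1 of the Rop7-III replicates). Between Rop7-III and Rop7-I 4 were higher (15.4%, against 4.85%, with 1 called without Rop7-III replicate 2 and 2 without any 1 of the other samples of these clones), and between Rop7-I and Rop7-II 6 were higher and 2 lower (30.8%, against 7.53%). Il7r, the receptor for the survival cytokine IL-7, was at 300.25, 318 and 333 TPM in the Rop7-II samples, 473, 525 and 533 TPM in those of Rop7-I, and 747, 730.03 and 771 TPM in those of Rop7-III. The clones did not overlap, and the order was the reverse of that of Gimap7. The log2 difference of Il7r was 1.24 between Rop7-III and Rop7-II (adjusted p 1.26e-06), 0.55 between Rop7-III and Rop7-I (2.64e-04) and 0.69 between Rop7-I and Rop7-II (4.85e-05).

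Tob1, an inhibitor of proliferation, was 139 ± 1.35, 125 ± 3.83 and 81.2 ± 12.3 TPM in Rop7-III, Rop7-I and Rop7-II, with differences against Rop7-II of 0.78 (adjusted p 2.74e-04) and 0.63 (0.00141). Klf2, a transcription factor of quiescent T cells that drives their exit from lymphoid organs, was 1311 ± 91.8, 1166 ± 84.4 and 817 ± 48.6 TPM in Rop7-II, Rop7-III and Rop7-I. Klf2 was lowest in Rop7-I, by a log2 difference of -0.68 against Rop7-II (adjusted p 2.62e-04) and with Rop7-III above it by 0.51 (adjusted p 0.00162, and 0.0106 without Rop7-III replicate 2), so its order differed from those of Gimap7 and Gimap9. Foxo1 was called between Rop7-III and Rop7-I at 0.27 (adjusted p 0.00777, and 0.0205 to 0.0345 without any 1 of the samples of these clones). Ctnnb1 and Gsk3b were not called in any pair.

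The pattern of Gimap7, the member with the widest range, was compared with that of all 12107 tested genes outside the family. Likeness was the root mean square difference between log2(TPM + 1) values centred on each gene's mean, over the 9 samples, where a smaller value means a closer pattern. The closest were Rarg (0.0935), a retinoic acid receptor on chromosome 15, Lrig1 (0.103), a brake on growth factor receptors on chromosome 6, Nfix (0.115), a transcription factor on chromosome 8, Them6 (0.120) on chromosome 15 and Lyst (0.123), a regulator of lysosome traffic on chromosome 13. Rarg was at 116, 110.2 and 126 TPM in the Rop7-II samples, 85.6, 84.1 and 91.8 TPM in those of Rop7-I and 67.8, 61.7 and 71.1 TPM in those of Rop7-III, so its clones were ordered as in Gimap7 without overlap. These genes were chosen for their pattern, and no test is given for it. Nfix was low, at 1.29–3.36 TPM, where the log2(TPM + 1) scale understates fold changes. Neither Nfix nor Lyst was called in the pairs with Rop7-I.

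Within the family, Gimap9 was the closest to Gimap7, at 0.147, with 18 genes outside the family closer still. Gimap8 was at 0.288 with 776 genes closer, and Gimap3 at 0.346 with 2938 closer. By this measure a gene that hardly varies over the clones, such as Gimap3, can stand closer than one that varies in another direction. Gimap1 (0.419), Gimap4 (0.435), Gimap5 (0.471) and Gimap6 (0.485) were farther, with between 7494 and 9653 genes closer to Gimap7 than they were. Position in the cluster did not order this likeness, since Gimap6 and Gimap1 flank Gimap7 on the chromosome while Gimap9 lies beyond Gimap4 and Gimap6. These values describe 9 samples of 3 clones, in which genes share the same libraries.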

How the data were processed

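RNA-seq of sorted CD8 T cells from 9 samples was analysed. The authors aligned and counted non-strand-specific single-end reads with RSEM 1.2.11 to mm10 RefSeq genes and deposited TPM per gene and sample. They tested counts with DESeq2 1.8.1, which does not apply to TPM. Samples were grouped by the clone in their titles. Here log2(TPM + 1) was fitted in R 4.3.3 with limma 3.58.1 (trend of the spread on the mean, all 9 samples, no pairing), for the 12115 genes with a maximum TPM above 1. P-values were adjusted by Benjamini-Hochberg within each pair and are two-sided. The log2(TPM + 1) scale understates fold changes of low genes. Scripts were tested on simulated data.

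All 8 members were named. Of the neighbours and pathway lists, genes called with at least a 2-fold difference, up to 3 with the smallest adjusted p per list and pair, and the known partners Bcl2, Bcl2l1, Bax, Bcl2l11, Gabarapl2, Gsk3b and Ctnnb1 were named, with the 5 genes most like the member of widest range. A gene that this rule names is not reported here. Zfp746, Lrrc61, Mpp6, Zfp775 and Tmem176b fall outside this rule, with their values already seen. The members, the lists and the motifs were chosen with earlier results of these data known. Positions and promoters are from GRCm38.p6 and RefSeq. The alternatives were other pseudocounts, filters and scalings, no trend, sample weights, only the compared clones, a replicate block, a B-cell covariate and each sample left out.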

Additional observations from a re-analysis of the deposited data

How the results depend on the processing

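Each of the 24 differences of a Gimap gene was computed again under 20 other settings. Leaving out each sample in turn gave 216 values, of which 202 kept their direction and their side of the threshold, 9 lost the call, 3 gained it and 2 changed sign. The other settings gave 264 values, of which 255 kept both, 4 lost the call, 4 gained it and 1 changed sign. The changes of sign were in differences near 0 that had not been called. For Gimap3, Rop7-III minus Rop7-I, the log2 difference was 0.000845 under quantile normalization and from -0.0416 to 0.00836 with single samples left out, and for Gimap4 in the same pair it was from -0.0448 to 0.0117. Among the values with a sample left out, the positive ones came without Rop7-I replicate 3. The cause was not tested.

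With at least a 2-fold difference required, 0 members were called in each pair. Without the trend 1 member was called between Rop7-III and Rop7-I, since Gimap7 was at an adjusted p of 0.0135. Leaving out single samples gave 4 to 5 called members for Rop7-III and Rop7-II, 1 to 3 for Rop7-III and Rop7-I, and 1 to 4 for Rop7-I and Rop7-II. The highest of each range came without Rop7-II replicate 3, when Gimap5 was called. The 1 for Rop7-I and Rop7-II came without Rop7-I replicate 2 or 3. In these 2 settings Gimap6 (adjusted p 0.0157 and 0.0139) and Gimap7 (0.0138 and 0.0111) lost their calls. Gimap6 in this pair was also lost without the trend (0.0138) and with only the compared clones (0.0126). Settings that gained a call were sample weights (adjusted p 0.00700) and the replicate block (0.00920) for Gimap9 in Rop7-III and Rop7-I, only the compared clones for Gimap5 in that pair (0.00289), and a minimum TPM of 1 across the samples for Gimap4 in Rop7-I and Rop7-II (0.00960).

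Replicate numbers are shared between the clones. Deviations from the clone means had r from -0.39 to 0.11 between samples with the same number. Between samples with different numbers r was from -0.18 to 0.32. With 3 samples per clone, these values cannot show whether samples with the same number were handled together. With the replicate number as a block, 4, 2 and 3 members were called in the 3 pairs, and Gimap7 lost its call between Rop7-III and Rop7-I (adjusted p 0.0138). Over all genes the block gave 1105, 373 and 613 calls, against 1488, 588 and 912 without it. Leaving out single samples gave 834 to 1315, 258 to 830 and 416 to 875 calls over all genes. With only the compared clones there were 939, 926 and 433, with sample weights 1062 for Rop7-III and Rop7-I, and without the trend 600 for Rop7-I and Rop7-II. Among the named genes outside the family, 49 differences were called, of which 32 kept the call under every setting in which the gene was tested. The others lost it under at least 1 setting. Repin1, Atp6v0e2 and Bcl2l2 were not tested where a minimum TPM of 1 was required across the samples. Over the settings, the pathway lists had 2 to 5, 1 to 3 and 0 to 2 called genes of the Bcl-2 family, 1 to 3, 2 to 3 and 0 to 3 of autophagy, and 4 to 10, 1 to 4 and 6 to 10 of naive survival, in the order of pairs above. TPM keep no read depth, and 3 samples per clone limit the precision.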
